A study of Mus musculus with 38 samples.

Results

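Footprints of ribosomes labelled by TurboID-PSD95 were compared with footprints of ribosomes labelled by Pan-TurboID in depolarized cortical neurons of the mouse. The comparison held 6 pulldown libraries of the 38 in the series, 3 from neurons with PSD95-TurboID lentivirus and 3 from neurons with Pan-TurboID lentivirus. The members were the libraries that the labels name as depolarized pulldowns with either bait and without siRNA, so that 2 depolarized TurboID-PSD95 pulldowns with knockdown of eIF4G2 were left out, and libraries with the same replicate number were taken as pairs. Both baits were doxycycline-inducible and were expressed in primary neuronal cultures made from the cortex of mouse embryos, which hold several kinds of neuron. Both groups were silenced for 2 h with tetrodotoxin and DL-AP5, depolarized with 55 mM KCl for 1 h, given cycloheximide for 2 min, and then given biotin for 30 min in medium that again held the 2 silencers. The neurons were therefore labelled after the KCl was gone, in the 30 min of recovery, with elongation stopped. Cells of several dishes were combined for each library, and samples of the same replicate were processed together. The comparison asks which mRNAs are translated near the postsynaptic bait rather than in the whole neuron once neurons have been depolarized. The 6 depolarized inputs, kept from the same monosomes ahead of the pulldown, show how the cultures differed before any selection.

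TurboID is a biotin ligase that marks proteins close to it, so that streptavidin can pull down labelled ribosomes with the mRNA fragments they protect. PSD95, the protein of the gene Dlg4, is a scaffold of the MAGUK family that clusters glutamate receptors beneath the postsynaptic membrane of excitatory synapses. Some mRNAs are carried into dendrites and translated there, and depolarization both induces immediate early genes in the nucleus and changes which mRNAs dendrites translate. The construct of TurboID-PSD95 joined TurboID and a green fluorescent protein to the coding sequence of rat PSD95, between untranslated regions (UTRs) of PSD95. Footprints of the construct can align to mouse Dlg4, and Dlg4 is therefore given apart from all other genes.

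Counts in coding sequences (CDSs) ran from 2055596 in PSD95 replicate 1 to 13509596 in Pan replicate 2. Levels are given in CPM, counts per 1000000 CDS counts of the genes tested in the library, with the libraries scaled to each other by edgeR's TMM factors. Levels of UTRs use the same CDS counts as their base. All 12 neuron markers were measured, with a summed level of 9567 to 14740 CPM. The markers of interneurons summed to 1952 to 3117 CPM and those of astrocytes to 1215 to 1944 CPM. Cx3cr1 and P2ry12, which define microglia, and Mog and Mag, which define myelinating oligodendrocytes, were at or near 0.

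Dlg4 was the gene that separated the baits. The first coding segment of Dlg4 is printed to show where the 5′ UTR ends and the coding sequence starts, since counts differ on either side of this point, with the start codon in capitals. It lies on the plus strand of mm10 at chr11:70018920-70018949, and the sequence was read from RefSeq's genome of the same assembly.
Dlg4 first coding segment: ATGgactgtctctgtatagtgacaaccaag
Upstream of it, at chr11:70018444-70018919, lie the 476 nt counted as 5′ UTR, and the 837 nt counted as 3′ UTR lie at chr11:70044696-70045532.

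Over its full CDS of 2175 nt, Dlg4 stood at 73.1, 78.3 and 81.4 CPM in Pan pulldowns 1, 2 and 3. In PSD95 pulldowns 1, 2 and 3 the same CDS stood at 1300, 3997 and 16253 CPM. The Pan pulldowns lay close together, whereas the PSD95 pulldowns differed widely among themselves, and the groups did not overlap. The ratio of PSD95 over Pan was 17.8 in pair 1, 51.0 in pair 2 and 200 in pair 3. The fit across all genes used Dlg4's longest transcript, whose CDS of 822 nt holds 8 segments, not all of them shared with the full CDS. That fit gave a log2 fold change of 5.99 with an SE of 0.36 (edgeR's quasi-likelihood test, adjusted p = 4.2e-51, n = 3 pairs). The log2 ratios of the 3 pairs in this shorter CDS had an SD of 1.79, and DESeq2, another test, gave an SE of 0.88. The SE of 0.36 and its p-value may therefore overstate the precision. Dlg4 passed the test under each of 16 other settings, with a log2 fold change between 5.11 and 6.75. The excess was spread over the whole CDS. Each of its 20 coding segments was higher with PSD95 in all 3 pairs, and over the 19 segments with any Pan counts the ratio of means was at least 43.0, with a median of 106. The highest ratio rests on a single Pan count in segment 13 and is not given, and the next was 363, in segment 14.

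The 5′ UTR of Dlg4 did not share the excess of the CDS. It stood at 46.5, 95.4 and 89.9 CPM in Pan pulldowns 1 to 3 and at 54.2, 100 and 50.9 CPM in PSD95 pulldowns 1 to 3. These ranges overlapped. The 3′ UTR held 3 counts in each Pan pulldown and 37, 12 and 6 counts in PSD95 pulldowns 1 to 3, higher with PSD95 in all 3 pairs but on few counts. In CPM the 3′ UTR stood at 1.05, 0.22 and 0.73 with Pan and at 18.8, 1.54 and 1.79 with PSD95, without overlap. Already in the inputs, the full CDS of Dlg4 stood at 202, 397 and 643 CPM with PSD95 against 88.4, 80.0 and 74.4 CPM with Pan. The input CDS ratios were 2.28, 4.96 and 8.65 in pairs 1, 2 and 3, so that the order of the pairs was that of the pulldowns. The share of the excess that came from the construct and the share that came from the neuron's own Dlg4 cannot be told apart from these counts, since rat and mouse footprints were counted together.

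**Figure D1:**
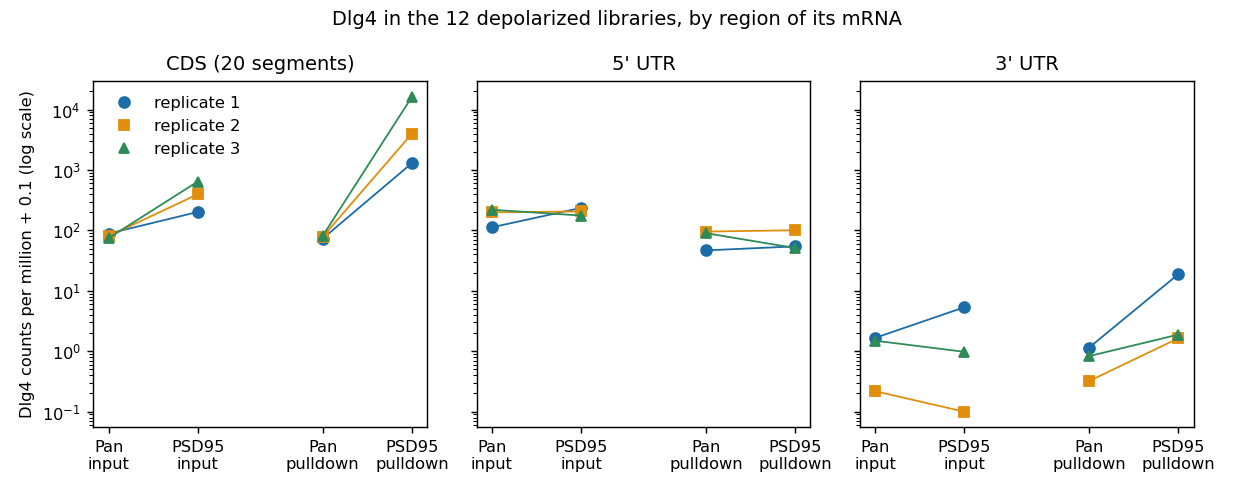
Dlg4 in the 12 depolarized libraries, in CPM plus 0.1 on a log scale, for the CDS, the 5′ UTR and the 3′ UTR. Each point is a library and lines join the baits of a replicate. The CDS rises from Pan to PSD95 in the inputs and far more in the pulldowns, while the 5′ UTR stays between 46.5 and 100 CPM in all pulldowns.

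Across all genes, few differed between the baits. The test covered 11567 genes, and 9 (0.0778%) came in under a 0.05 false discovery rate (FDR), 3 higher with PSD95 (0.0259%) and 6 lower (0.0519%). Without Dlg4, 2 genes were higher, Dlg1 and Prpf4b, and 6 were lower, mt-Nd3, mt-Nd4l, mt-Co2, Col3a1, Col4a1 and Ahnak. With an unadjusted p under 0.05 there were 214 genes (1.85%), 102 higher (0.882%) and 112 lower (0.968%). The median log2 fold change was -0.01, with quartiles of -0.21 and 0.20, and 2.58% of genes moved by more than 1 on the log2 scale. Of 6988 genes with a mean level of at least 20 CPM, 6004 (85.9%) had a 95% confidence interval of the log2 fold change within 1 of 0 on both sides. For 11562 of the 11567 genes, edgeR gave the prior so much weight that the gene's own spread between pairs hardly entered the p-value or the interval. The intervals may therefore be too narrow, as for mt-Nd3, whose log2 ratios had an SD of 1.27 over the 3 pairs beside an SE of 0.33. The number of genes past the FDR fell to 1, Dlg4, without the replicate block, and to 1, again Dlg4, with DESeq2.

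**Figure D2:**
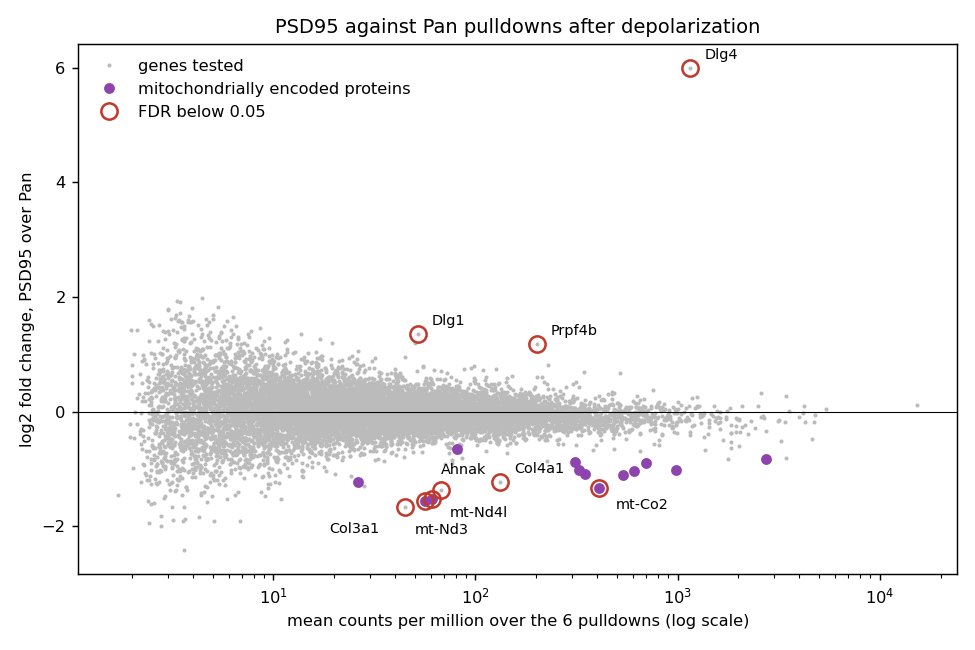
Log2 fold change of PSD95 over Pan pulldowns for each gene tested, against the mean level over the 6 pulldowns on a log scale. Circles mark the 9 genes past the FDR and filled purple points the mitochondrially encoded proteins. Dlg4 stands alone at 5.99, and the purple points all lie below 0.

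The 3 pairs had little in common. Over the 6988 genes of at least 20 CPM, the log2 ratios of PSD95 over Pan had a Pearson correlation across genes of -0.02 between pairs 1 and 2, -0.01 between pairs 1 and 3, and -0.36 between pairs 2 and 3. Genes are not independent replicates, and these values are descriptions. Of all genes tested, 1998 (17.3%) moved the same way in all 3 pairs, 1012 up (8.75%) and 986 down (8.52%). PSD95 replicates 1 and 2 were the least alike of the 6 libraries, with a correlation of log2 CPM of 0.79, while the libraries of the same number correlated at 0.92 to 0.96, a range that libraries of different number also reached (0.96 for Pan 2 with PSD95 3). Longer CDSs went with lower ratios, with a Spearman correlation of -0.20 across genes. Removing that trend raised the number of genes past the FDR to 14.

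Dlg1, which encodes the MAGUK scaffold SAP97, rose with PSD95, but in 1 segment of its CDS. Dlg1 stood at 39.5, 17.8 and 24.1 CPM in Pan pulldowns 1 to 3 and at 39.0, 47.4 and 142 CPM in PSD95 pulldowns 1 to 3. Pair 1 showed no rise, pair 3 the highest, and the groups overlapped. The log2 fold change was 1.35 with an SE of 0.33 (edgeR, adjusted p = 0.0463). The difference lay in coding segment 10 of 25, which held 9, 7 and 0 counts in Pan pulldowns 1 to 3 and 13, 218 and 394 counts in PSD95 pulldowns 1 to 3. Over the other 24 segments Dlg1 stood at 36.4, 17.3 and 24.1 CPM with Pan and at 32.4, 19.5 and 24.7 CPM with PSD95. In a fit without segment 10, an alternative chosen after seeing the data, the log2 fold change of Dlg1 was 0.02 with an SE of 0.36 (edgeR, unadjusted p = 0.961), and 8 genes passed in all.

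Segment 10 of Dlg1 is shown beside the Dlg4 segment of the same length, since the whole difference of Dlg1 sits there. Both are 137 nt long and on the plus strand of mm10, Dlg4 segment 7 at chr11:70031355-70031491 and Dlg1 segment 10 at chr16:31793504-31793640. Capitals mark the bases that differ.
Dlg4 coding segment 7: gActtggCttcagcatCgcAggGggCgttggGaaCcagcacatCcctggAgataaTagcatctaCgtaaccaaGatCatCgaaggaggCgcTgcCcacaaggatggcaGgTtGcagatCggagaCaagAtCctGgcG
Dlg1 coding segment 10: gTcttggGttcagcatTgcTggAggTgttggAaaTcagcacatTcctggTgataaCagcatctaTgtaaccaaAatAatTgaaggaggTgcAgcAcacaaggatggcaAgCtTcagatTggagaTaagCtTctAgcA
The mouse sequences are identical at 110 of 137 positions (80.3%), with 27 differences, and the longest identical run is 13 bases. Only segments of equal length were compared between Dlg1 and Dlg4. Among these no pair had a higher identity, while other pairs had longer identical runs, up to 21 bases with Dlg4 segment 19. The rat sequence of the construct was not used here, and whether its footprints aligned to Dlg1 was not tested.

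The same segment stood apart in neurons at rest, in libraries that the depolarized comparison does not use. There segment 10 of Dlg1 held 3.48, 4.68 and 2.35 CPM in resting Pan pulldowns 1 to 3 and 30.1, 38.8 and 58.8 CPM in resting PSD95 pulldowns 1 to 3. The remaining segments of Dlg1 stood at 46.6, 36.9 and 30.7 CPM with Pan and at 36.9, 40.7 and 26.2 CPM with PSD95, and these ranges overlapped. The other MAGUK scaffolds did not pass. Dlg2, which encodes PSD93, had a log2 fold change of -0.06 and Dlg3, which encodes SAP102, one of -0.21.

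**Figure D3:**
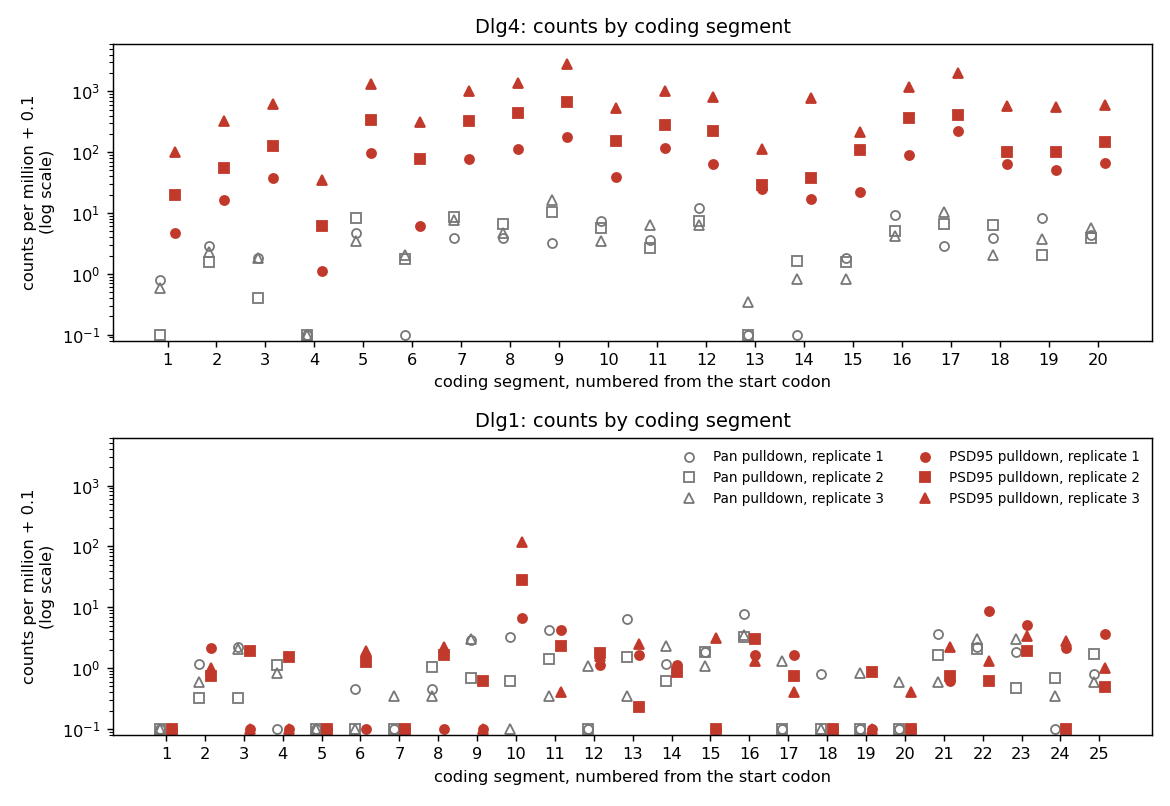
CPM plus 0.1 on a log scale in each coding segment of Dlg4 and of Dlg1, numbered from the start codon, in the 6 pulldowns. Filled red symbols are PSD95 and open grey symbols Pan, with a symbol for each replicate. In Dlg4 all 20 segments are higher with PSD95, and in Dlg1 segment 10 stands above the others in PSD95 pulldowns 2 and 3.

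Beyond the construct's own gene, the postsynaptic lists stayed near 0. Of 33 genes tested on the list of postsynaptic density scaffolds, 0 passed the FDR (edgeR) and 3 had an unadjusted p under 0.05, beside 1.85% of all genes. The median log2 fold change was 0.10, beside -0.01 over all genes. The same 1.85% stands beside such counts in each list that follows. By DESeq2 no gene other than Dlg4 passed, so the count was 0 there as well. The 3 were Homer1, Shank3 and Akap5, of which the last 2 were picked after their values were seen. Homer1, a scaffold that links metabotropic glutamate receptors to the density and has a short isoform induced by activity, stood at 26.9, 17.3 and 14.1 CPM with Pan and at 83.6, 31.2 and 17.3 CPM with PSD95. Homer1 was higher with PSD95 in all 3 pairs, though the groups overlapped, and its log2 fold change was 0.94 with an SE of 0.35 (edgeR, unadjusted p = 0.00702, adjusted p = 1.00). These values cover a short CDS of 561 nt, that of the longest transcript. Footprints were counted by position, so that those of other isoforms on the same segments are included. With the transcript of the longest CDS, an alternative chosen after seeing the data, the log2 fold change was 0.96 (edgeR, unadjusted p = 0.00248). Shank3, a scaffold at the base of the density, had a log2 fold change of 0.73 and Akap5, which anchors protein kinase A, one of 0.59. Not every member of this list is a scaffold of the density. Camk2b and Camk2a encode kinase subunits and Gphn a scaffold of inhibitory synapses. Among the most abundant members, the log2 fold change was -0.14 for Camk2b, -0.43 for Camk2a and 0.07 for Gphn, and none of these passed.

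Receptors and adhesion proteins of the postsynaptic side showed no called gene either. Among 31 glutamate receptors and auxiliary subunits the median log2 fold change was -0.06, and among 25 postsynaptic adhesion proteins it was -0.09, with 0 genes past the FDR and 0 at an unadjusted p under 0.05 in each list (edgeR; 0 by DESeq2). Grin1, the obligatory subunit of NMDA receptors, stood at 1575, 1322 and 1097 CPM with Pan and at 1507, 938 and 1330 CPM with PSD95, a log2 fold change of -0.09 with an SE of 0.27. The groups overlapped, with the highest value in Pan replicate 1 and the lowest in PSD95 replicate 2. For the AMPA receptor subunits Gria1 and Gria2 the log2 fold changes were -0.10 and -0.26. Pair 2 was the low pair for both lists, with list medians of -0.43 for the receptors and -0.35 for the adhesion proteins, where pair 3 had 0.23 for each.

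The list of mRNAs known in dendrites had a median log2 fold change of -0.10 over 23 genes, with 0 past the FDR (edgeR; 0 by DESeq2) and 2 at an unadjusted p under 0.05. One of these was Map2, which encodes a microtubule-associated protein of dendrites. Map2 stood at 5874, 3432 and 3947 CPM with Pan and at 2106, 2533 and 2752 CPM with PSD95. All 3 PSD95 values lay below all 3 Pan values, a pattern that 266 of all genes tested (2.3%) showed. The log2 fold change of Map2 was -0.81 with an SE of 0.28 (edgeR, unadjusted p = 0.00348, adjusted p = 1.00). In the depolarized inputs Map2 was also lower with PSD95, at -0.34 (edgeR, unadjusted p = 0.0636). Relative to the inputs its log2 fold change was -0.41 (edgeR, unadjusted p = 0.202). In resting pulldowns Map2 passed, with a log2 fold change of -0.68 (edgeR, adjusted p = 3.44e-10). The other was Shank3, given above as 0.73. Actb, the cytoplasmic actin of beta type, had a log2 fold change of -0.18 and Eef2, the elongation factor of translocation, one of -0.23. Map2 also led the spectrins, ankyrins and microtubule-associated proteins, 15 genes of the cytoskeleton with a median log2 fold change of -0.24 and 0 past the FDR (edgeR; 0 by DESeq2), 3 of them at an unadjusted p under 0.05. In that list the pair medians were -0.87, -0.04 and -0.05, so that pair 1 alone was far from 0.

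Lists that mark the soma, the axon and the nuclear response to depolarization had medians near 0 as well. The median log2 fold change was 0.01 over 36 presynaptic and axonal proteins, -0.03 over 22 cortical transcription factors, 0.02 over 22 microtubule motors and -0.08 over 32 genes of the ER translocon and its chaperones. None of these 4 lists held a gene past the FDR (edgeR; 0 by DESeq2), and at an unadjusted p under 0.05 they held 1 gene together, Pclo, picked after its values were seen, a scaffold of the presynaptic active zone, at -0.58. Syp, a membrane protein of synaptic vesicles, had a log2 fold change of -0.10. Tbr1, a transcription factor of deep-layer cortical neurons, had one of 0.01.

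Among 20 immediate early genes the median log2 fold change was -0.09, with 0 past the FDR (edgeR; 0 by DESeq2) and 0 at an unadjusted p under 0.05. Fos, a transcription factor induced by depolarization, stood at 1734, 1900 and 2716 CPM with Pan and at 781, 2098 and 1781 CPM with PSD95, a log2 fold change of -0.54 with an SE of 0.28 (edgeR, unadjusted p = 0.0507). Over the list, the medians of pairs 1, 2 and 3 were -0.48, 0.36 and -0.24, so that the pairs were opposed. Fos was lower with PSD95 in pairs 1 and 3 and higher in pair 2. At rest Fos passed as lower with PSD95, with a log2 fold change of -0.54 (edgeR, adjusted p = 0.00228). Egr1, another such factor, had a log2 fold change of -0.18 and Nr4a1, a nuclear receptor, one of 0.16. Arc, whose mRNA moves into dendrites after activity, stood at 98.7, 110 and 113 CPM with Pan and at 77.6, 127 and 102 CPM with PSD95, and its log2 fold change was -0.09. Arc was picked after its values were seen. The 5 biotin-dependent carboxylases, enzymes that carry biotin without any ligase from outside, had a median log2 fold change of -0.03. Of these, 3 lay below 0, 0 passed the FDR and 0 had an unadjusted p under 0.05 (edgeR). Their pair medians were 0.14, 0.02 and 0.58. Acaca, the most abundant, had a log2 fold change of 0.43 and was higher with PSD95 in all 3 pairs (edgeR, unadjusted p = 0.108). In resting pulldowns Acaca passed, at 0.67 (edgeR, adjusted p = 3.42e-07).

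Genes of the translation apparatus moved between pairs more than between baits. The 75 cytosolic ribosomal proteins tested had a median log2 fold change of 0.10, made of pair medians of 0.14, 0.46 and -0.44. The 76 histones tested behaved alike, with a median of 0.10 and pair medians of 0.38, 0.49 and -0.62. Both lists hold near-identical copies, so that single members are uncertain. Neither list had a gene past the FDR (edgeR; 0 by DESeq2), and at an unadjusted p under 0.05 there were 2 of 75 ribosomal proteins and 5 of 76 histones, beside 1.85% of all genes. Among 52 translation initiation factors the median was 0.00, and 3 were higher at an unadjusted p under 0.05, led by Eif5b. Eif5b, the GTPase that joins the ribosomal subunits, stood at 169, 124 and 209 CPM with Pan and at 375, 251 and 250 CPM with PSD95. Every PSD95 value of Eif5b lay above every Pan value, as for 270 of all genes tested (2.33%), and its log2 fold change was 0.81 with an SE of 0.27 (edgeR, unadjusted p = 0.00299, adjusted p = 1.00). Eif4g1 and Eif4g2, scaffolds of initiation complexes, had log2 fold changes of -0.32 and 0.03.

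**Figure D4:**
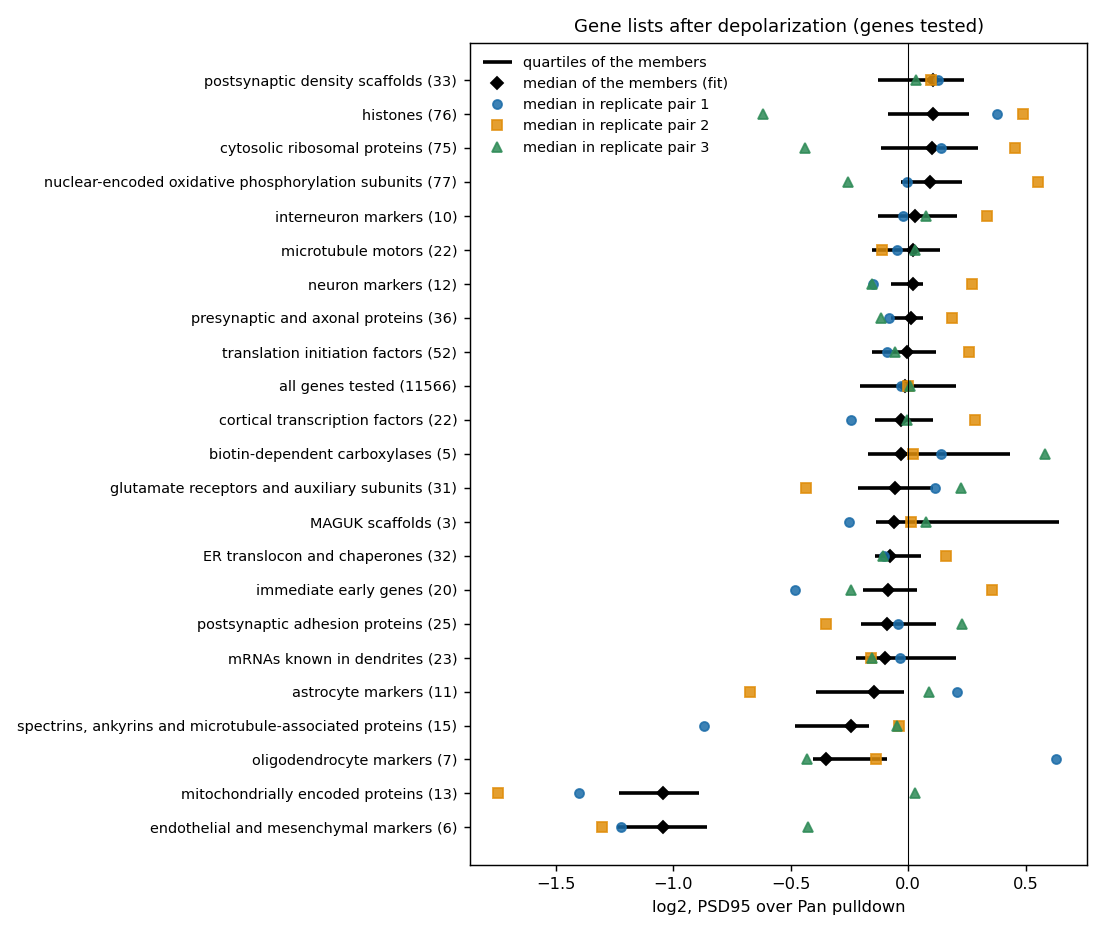
Median log2 ratio of PSD95 over Pan pulldowns for each gene list, with the number of genes tested in brackets. Diamonds are medians of the fitted log2 fold changes, bars the quartiles of the members, and coloured symbols the medians within each replicate pair. The mitochondrially encoded proteins and the endothelial and mesenchymal markers lie below the rest, and pair 3 of the mitochondrial list lies at 0.03.

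Prpf4b was the only gene apart from Dlg4 and Dlg1 that passed the FDR as higher with PSD95. It encodes a kinase of the splicing machinery. Prpf4b stood at 110, 116 and 139 CPM in Pan pulldowns 1 to 3 and at 352, 285 and 202 CPM in PSD95 pulldowns 1 to 3. The groups did not overlap and the gap was widest in pair 1. The log2 fold change was 1.17 with an SE of 0.28 (edgeR, adjusted p = 0.0344), and Prpf4b passed under 10 of 16 other settings. Its call was lost without replicate 1, without replicate 2, without the replicate block, with DESeq2, with no filter on low counts and with group means over all 24 libraries, while its log2 fold change stayed between 0.91 and 1.51 under all 16. In the inputs the log2 fold change of Prpf4b was -0.23 (edgeR, unadjusted p = 0.208), and relative to the inputs it was 1.43 (unadjusted p = 0.000307, adjusted p = 1.00). At rest Prpf4b had a log2 fold change of 0.31 (adjusted p = 0.235), and the difference between the depolarized and resting values, 0.87, did not pass over all genes (edgeR, unadjusted p = 0.00590, adjusted p = 1.00).

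The genes next in line among those higher in all 3 pairs did not pass. Apart from Prpf4b, the 10 with the smallest p were Eif5b and Homer1 above, Tmed8, Fbxo9, Fndc1, Mcrip1, Chd9, Cdk12 and Becn1, with unadjusted p up to 0.00816. Fbxo9, a substrate adaptor of a ubiquitin ligase, stood at 7.70, 6.86 and 7.31 CPM with Pan and at 30.9, 17.2 and 12.2 CPM with PSD95, a log2 fold change of 1.35. Cdk12, a kinase of RNA polymerase II, had one of 0.76, and Chd9, a chromatin remodeller, one of 0.80. Becn1, a subunit of the lipid kinase complex that starts autophagy, had one of 0.98 and Gpr3, an orphan receptor coupled to cAMP, one of 0.93. Eif5b and Cdk12 were the 2 of the 10 that also passed at rest, with log2 fold changes of 0.59 (edgeR, adjusted p = 2.42e-05) and 0.53 (adjusted p = 0.0195). Of all genes tested at rest, 43 of 12199 (0.352%) passed as higher with PSD95.

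Genes encoded by the mitochondrial genome made up 3 of the 6 that passed the FDR as lower with PSD95. All 13 were tested, 3 passed the FDR, all 13 had an unadjusted p under 0.05 in the direction of lower with PSD95, and their median log2 fold change was -1.04. These genes code for subunits of the respiratory chain and of ATP synthase and are translated by ribosomes inside mitochondria, not by the cytosolic ribosomes that translate nuclear mRNAs. mt-Nd3, a subunit of complex I, stood at 117, 116 and 29.2 CPM in Pan pulldowns 1 to 3 and at 24.3, 24.1 and 28.3 CPM in PSD95 pulldowns 1 to 3. In Pan replicate 3 the gene was as low as in the PSD95 pulldowns, and the fall of mt-Nd3 rests on pairs 1 and 2 (log2 fold change -1.56, SE 0.33, edgeR, adjusted p = 0.00753).

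The same held for mt-Nd4l, also of complex I, at 97.6, 135 and 42.1 CPM with Pan and 20.8, 28.7 and 39.6 CPM with PSD95 (log2 fold change -1.53, edgeR, adjusted p = 0.00753). For mt-Co2, a subunit of cytochrome c oxidase, the values were 1109, 525 and 213 CPM with Pan and 234, 156 and 225 CPM with PSD95 (log2 fold change -1.33, edgeR, adjusted p = 0.00927). The mitochondrial medians of the pairs were -1.40, -1.75 and 0.03. In pairs 1 and 2, 13 of 13 genes were lower with PSD95, and in pair 3, 6 of 13. Without replicate 1 the genes past the FDR were 2 in number, Dlg4 and Dlg1, without replicate 2 they were Dlg4 and Map2, and without replicate 3 there were 13, including 7 mitochondrial ones. Without replicates 1 or 2, no mitochondrial gene passed.

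The inputs carried the same pattern. The summed level of the 13 mitochondrial genes in the inputs was 8939, 8609 and 2248 CPM with Pan and 3761, 1825 and 2370 CPM with PSD95. In the pulldowns it was 12549, 11627 and 4849 CPM with Pan and 5286, 3698 and 5052 CPM with PSD95. Pan replicates 1 and 2 were high in both fractions and Pan replicate 3 was low in both. The input medians of pairs 1 to 3 were -1.18, -2.28 and 0.06. Relative to the inputs, the median log2 fold change of the 13 genes was 0.24, with 0 past the FDR (edgeR; 0 by DESeq2) and unadjusted p-values from 0.385 upward. At rest the median between the pulldowns was 0.15. The 77 nuclear-encoded subunits of oxidative phosphorylation tested, which cytosolic ribosomes translate, had a median of 0.10 with 0 past the FDR (edgeR; 0 by DESeq2) and 1 at an unadjusted p under 0.05. The medians of these 77 genes in pairs 1, 2 and 3 were -0.003, 0.55 and -0.26. Atp5b, the catalytic subunit of ATP synthase, had a log2 fold change of -0.03.

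**Figure D5:**
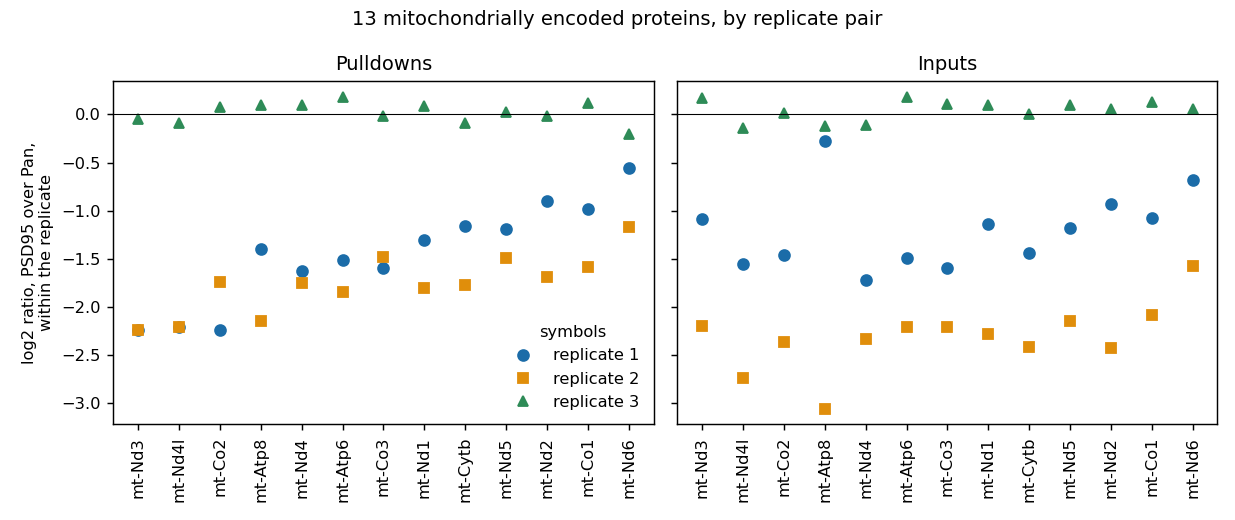
Log2 ratio of PSD95 over Pan within each replicate for the 13 mitochondrially encoded proteins, in pulldowns and in inputs. Each symbol is a gene in a replicate pair. In both fractions pairs 1 and 2 lie below 0 and pair 3 lies around 0, between -0.21 and 0.19.

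The collagens Col3a1 and Col4a1 also fell. Col3a1, a fibrillar collagen of mesenchymal cells, stood at 160, 49.0 and 3.17 CPM in Pan pulldowns 1 to 3 and at 42.1, 11.3 and 2.98 CPM in PSD95 pulldowns 1 to 3. Its level varied more between replicates than between baits, and the groups overlapped (log2 fold change -1.67, SE 0.36, edgeR, adjusted p = 0.00927). Col4a1, a collagen of basement membranes, stood at 266, 234 and 71.4 CPM with Pan and at 95.8, 71.9 and 51.2 CPM with PSD95 (log2 fold change -1.23, edgeR, adjusted p = 0.0315). Pan replicate 3 was again the low one. Col1a2, another fibrillar collagen, did not pass, at -1.29.

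Col3a1 and Col1a2 belong to a list of 12 endothelial and mesenchymal markers, of which 6 were tested, 1 passed the FDR and 5 had an unadjusted p under 0.05, all lower with PSD95. The median of the 6 was -1.05. The summed level of the tested markers was 460, 287 and 126 CPM in Pan pulldowns 1 to 3 and 235, 114 and 118 CPM in PSD95 pulldowns 1 to 3. In the inputs it was 636, 322 and 165 CPM with Pan and 456, 124 and 207 CPM with PSD95. Cldn5, Cdh5 and Tek, which define endothelium, held 3 to 7 counts in all 6 pulldowns together. Kdr, a receptor of endothelial growth factor that was also on the list, was not near 0, at 30.4 to 55.3 CPM with Pan and at 5.58 to 78.9 CPM with PSD95, a log2 fold change of -0.72 (edgeR, unadjusted p = 0.0376). It was lower with PSD95 in pairs 1 and 2 and higher in pair 3, and it was named after its values were seen. Fewer cells of such a type and fewer footprints per cell cannot be told apart in bulk libraries, and the part of these cells in the result was not tested. Relative to the inputs, Col3a1 had a log2 fold change of -0.36 and Col4a1 one of -0.84, and neither passed. In resting pulldowns Col3a1 passed, at -1.18 (edgeR, adjusted p = 0.000256), and Col4a1 did not, at -0.50.

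Ahnak, a very large scaffold protein beneath the cell membrane, stood at 115, 54.4 and 89.1 CPM with Pan and at 19.8, 13.7 and 112 CPM with PSD95. It was lower with PSD95 in pairs 1 and 2 and higher in pair 3 (log2 fold change -1.37, SE 0.32, edgeR, adjusted p = 0.0344). The collagens Col4a1 and Col3a1, the 3 mitochondrial genes and Ahnak each passed under 9 or 10 of the 16 other settings, with Col3a1 tested in 15, and for each the call was lost without replicate 1 and without replicate 2.

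Psmc5 and Prpf40b were among the genes that kept the groups apart, lower with PSD95, without passing, as Map2 and mt-Co3 did. Psmc5, an ATPase of the proteasome's regulatory particle, stood at 284, 261 and 330 CPM with Pan and at 123, 164 and 197 CPM with PSD95. Its log2 fold change was -0.87 with an SE of 0.27 (edgeR, unadjusted p = 0.00135, adjusted p = 0.823). Prpf40b, a splicing factor, stood at 106, 85.6 and 105 CPM with Pan and at 34.5, 62.3 and 63.7 CPM with PSD95, a log2 fold change of -0.91 (edgeR, unadjusted p = 0.00227, adjusted p = 1.00). In the inputs both were level, with log2 fold changes of 0.08 for Psmc5 and 0.04 for Prpf40b. In resting pulldowns both passed, at -0.87 for Psmc5 (edgeR, adjusted p = 3.44e-10) and at -0.71 for Prpf40b (adjusted p = 2.42e-05).

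The bait difference of the inputs was tested on its own. Of 12211 genes, Dlg4 alone passed (0.00819%), with a log2 fold change of 2.23 and an SE of 0.24 (edgeR, adjusted p = 0.00261). In the comparison of pulldowns relative to inputs of the same bait, Dlg4 alone passed of 12429 genes (0.00805%). Its log2 fold change was 3.98 with an SE of 0.62 (edgeR, adjusted p = 0.0448). That call was close to the threshold and was lost under DESeq2 and without the replicate block, among other settings, while the log2 fold change stayed between 3.24 and 4.48. No gene other than Dlg4 passed this test. Its block was the replicate number, shared by both baits and both fractions, so that no pulldown was paired with its own input. A fit with that pairing was not run, and which genes it would call is not known.

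Whether depolarization changed the bait difference was tested against the 6 resting pulldowns of the same baits, whose treatment label names cycloheximide and no KCl. Of 12493 genes, 0 (0.0%) passed by edgeR's quasi-likelihood test, 0 by its likelihood ratio test and 0 by DESeq2, and 294 had an unadjusted p under 0.05. For Dlg4 the full CDS at rest stood at 134, 148 and 153 CPM with Pan and at 4305, 3761 and 10268 CPM with PSD95. The ratio of means was 92.6 in depolarized and 42.1 in resting pulldowns, and the difference in the fitted log2 fold changes was 0.61 (edgeR, unadjusted p = 0.327). Without replicate 1 that difference was 1.20 (edgeR, unadjusted p = 0.0255, adjusted p = 1.00), and without replicate 3 it was -0.02, so that its size rests on single replicates. In the resting pulldowns on their own, 120 of 12199 genes (0.984%) passed, 43 higher (0.352%) and 77 lower (0.631%) with PSD95. That this number is above the 9 found after depolarization does not show a difference between the states, which the test of the difference did not find. Across the 6988 genes of at least 20 CPM, the fold changes of both states had a Pearson correlation of 0.16, a description with genes as points.

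The distribution of footprints along mRNAs was compared last. The 5′ UTR held 4.94%, 11.8% and 12.5% of the counts in Pan pulldowns 1 to 3 and 5.15%, 18.4% and 9.93% in PSD95 pulldowns 1 to 3, of all counts in the CDS and both UTRs of 1 transcript per gene. Replicate 1 was low with both baits and PSD95 replicate 2 was the highest. The paired difference was 1.41 ± 4.66 percentage points (SD, n = 3 pairs, exact permutation test, two-sided, p = 0.75). The 3′ UTR share was 3.67%, 2.08% and 2.24% with Pan and 2.95%, 1.86% and 2.59% with PSD95, a paired difference of -0.20 ± 0.53 percentage points (SD, n = 3 pairs, exact permutation test, two-sided, p = 0.75). Without replicate 2 the 5′ UTR difference was -1.17 points and without replicate 3 it was 3.38 points. Without replicate 1 the 3′ UTR difference was 0.06 points. With 3 pairs this test cannot give a p under 0.25. Footprints were counted by their 5′ ends with no offset, so that ribosomes on the first codons count in the 5′ UTR.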

How the data were processed

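The authors removed ribosomal RNA and duplicates according to the names of their alignment files, aligned reads to mm10 with Rsubread and counted 5′ ends of footprints of 25 to 100 nt in exon segments with plastid. Strandedness and the handling of multi-mapped reads are not given in the sources used here. The deposited counts are whole numbers for each CDS, 5′ UTR and 3′ UTR segment of each library, without pooling; RPKM columns were not used. Segments were summed over the longest transcript of each gene, and 66664 of 67238 transcripts were matched to GENCODE M21 symbols, giving 22375 genes. Total counts of the 6 pulldowns ran from 8854360 to 35643247 and CDS counts of the inputs from 2106398 to 8795782. Footprints of overlapping genes and of close paralogs may be counted in more than 1 gene.

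CDS counts were tested in R 4.3.3 with edgeR 4.0.16 (quasi-likelihood F test, robust, TMM, filterByExpr, Benjamini-Hochberg, FDR 0.05), with the replicate number as a block. In the fits of 6 libraries, 2 residual degrees of freedom remained. DESeq2 1.42.0 was an alternative. The pairing rests on the study's statement that samples of 1 replicate were processed together. Deviations from the group means correlated between same-numbered libraries at 0.61, 0.30 and 0.14 in pulldowns and at 0.44, 0.31 and 0.42 in inputs, although Pan 3 and PSD95 2 correlated at 0.54 in pulldowns. No pulldowns of the same bait agreed within counting noise. Log2 ratios within pairs used a pseudocount of 0.5 CPM. UTR shares were compared by exact permutation. Scripts were tested on simulated data.

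Genes named were Dlg4, the 10 with the smallest p in each direction and the 5 with the largest fold at a mean of at least 20 CPM, all among genes moving 1 way in 3 pairs, and from each list the 4 most abundant members and any past the FDR. A few genes within this rule are left out here. Others are marked in the text, with the exception of genes past the FDR, all of which are named, and of markers. The members and the 23 lists were chosen with earlier results of these data known. Alternatives were other normalizations, filters, tests, transcripts and blocks, leaving out each replicate, and removing the trend with CDS length.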

Additional observations from a re-analysis of the deposited data

How the results depend on the processing

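Of the 9 genes past the FDR between the pulldowns, 1 was left without the replicate block, 1 with DESeq2, 1 with all 24 libraries of the KCl experiment fitted as group means and 2 with these and the block, and 14 passed with the trend of CDS length removed. Leaving out a replicate gave 2 to 13. Between the inputs, where 1 gene passed, 0 passed without the replicate block and 0 in either fit of all 24 libraries, 5 passed with the likelihood ratio test, 17 with no filter on low counts, and 0 to 4 with a replicate left out. Relative to the inputs, where 1 gene passed, 0 passed without the replicate block, with DESeq2, with the stricter filter, with the transcript of the highest count, with the trend of CDS length removed, with group means of all 24 libraries, and with the transcript of the longest CDS, an alternative chosen after seeing the data; 2 passed with no filter, and 0 to 1 with a replicate left out. For depolarized against resting, where 0 passed, 5 passed with no filter on low counts. No result changed direction past the threshold. The cause of these changes was not tested. For the genes named by p, fold or FDR, 343 values under other settings stayed on their side of the threshold, 50 lost a call and 3 gained one (mt-Co3 and mt-Cytb), and 363 list medians stayed within the spread between pairs while 5 moved further. The paired and unpaired tests of UTR shares gave p = 0.75 and 0.90 (5′ UTR) and 0.75 and 0.80 (3′ UTR), all exact permutation tests, and with a replicate left out the differences ran from -1.17 to 3.38 and from -0.47 to 0.06 percentage points.

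At 3 pairs the interval of the log2 fold change had a median width of 0.69 on either side over all genes tested, and the smallest change past the FDR was 1.17 in size, that of Prpf4b. Replicates 1 and 2 decide the calls of the mitochondrial genes, the collagens, Ahnak and Prpf4b, and replicates 2 and 3 that of Dlg1.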
